A study of Mus musculus with 6 samples.

Results

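Transcripts of 8 genes of the follicular helper T (Tfh) cell and germinal center (GC) programs were examined in spleens of NOD.B10 and BL/10 females. The members were chosen by name, as Cxcr5, Bcl6, Maf, Cd40lg, Tox2, S1pr2, Gcsam and Mybl1, and all 8 were found among the 47729 genes of the count table. All 8 passed the filter on low counts, which left 15330 genes. NOD.B10 (NOD.B10Sn-H2b/J) is the mouse strain with primary Sjögren's syndrome, which carries the H2b haplotype on a NOD background, and BL/10 (C57BL10/SnJ) is the healthy control strain. RNA of whole spleen was sequenced from 3 females of each strain, without treatment. The strain was taken from the description of each library, which matches the column name in the count table. The title and the strain field of the same 6 libraries name the other strain, so that every direction given here would be turned around under the titles. All 3 NOD.B10 libraries and BL/10 replicate 1 are labelled 26 weeks of age, and BL/10 replicates 2 and 3 are labelled 36 weeks. The protocol in the same labels gives 26 weeks and controls matched in age, so that the age of these 2 libraries is uncertain, and values without them describe a set of labels.

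Germinal centers form in B cell follicles, where B cells divide, mutate their antibody genes and compete for help from Tfh cells. Bcl6 encodes the transcriptional repressor required both for Tfh cells and for GC B cells, and CXCR5 brings T and B cells into the follicle along its ligand CXCL13. Tfh cells give help through CD40 ligand (Cd40lg) and IL-21, whose expression is promoted by c-MAF, and TOX2 is a transcription factor of Tfh cells. S1pr2, Gcsam and Mybl1 are on the GC B cell side, encoding a receptor that confines B cells to the GC, an adaptor of GC B cells and a MYB family transcription factor. Several members are also used outside these cells, since Cxcr5 is carried by most mature B cells and Maf by macrophages.

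Promoter sequences from RefSeq (GRCm38.p6) were found for 4 of the 8 members, Bcl6, Tox2, S1pr2 and Gcsam. They are shown because the program is built on DNA-binding factors, BCL6 itself among them. Each sequence runs 5′ to 3′ on the strand of the gene and ends before the annotated start. Capitals mark the palindrome TTCNNNGAA, a type of site read by STAT factors and by BCL6. Bcl6 lies at chr16:23988853-23989102 (minus strand), Tox2 at chr2:163202877-163203124 (plus strand), S1pr2 at chr9:20976794-20977043 (minus strand) and Gcsam at chr16:45610190-45610379 (plus strand).
Bcl6: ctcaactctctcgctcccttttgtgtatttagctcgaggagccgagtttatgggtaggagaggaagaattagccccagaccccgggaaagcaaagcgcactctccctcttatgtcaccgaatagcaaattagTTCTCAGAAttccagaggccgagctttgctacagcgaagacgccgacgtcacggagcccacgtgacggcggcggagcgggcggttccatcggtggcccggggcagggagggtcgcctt
Tox2: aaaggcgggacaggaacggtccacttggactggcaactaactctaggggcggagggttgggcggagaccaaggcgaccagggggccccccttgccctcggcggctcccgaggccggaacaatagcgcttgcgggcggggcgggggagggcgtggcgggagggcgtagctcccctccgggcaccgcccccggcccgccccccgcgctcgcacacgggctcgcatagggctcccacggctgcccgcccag
S1pr2: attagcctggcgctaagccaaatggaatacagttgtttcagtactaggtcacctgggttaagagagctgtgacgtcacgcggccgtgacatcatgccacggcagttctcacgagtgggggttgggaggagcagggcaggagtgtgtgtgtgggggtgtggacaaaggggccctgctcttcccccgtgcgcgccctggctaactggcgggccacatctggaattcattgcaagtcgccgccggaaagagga
Gcsam: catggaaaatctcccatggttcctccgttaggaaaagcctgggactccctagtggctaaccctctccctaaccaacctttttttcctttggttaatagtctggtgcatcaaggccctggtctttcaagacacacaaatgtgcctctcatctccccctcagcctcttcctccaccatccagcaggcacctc
The window of Bcl6 held 1 match to TTCNNNGAA, 118 bases before the start, and those of the other 3 genes held none. The windows had 250 bases for Bcl6 and S1pr2, 248 for Tox2 and 190 for Gcsam, and of 27025 promoters, each searched over 250 bases, 7.14% held a match. Neither CAGCTG, an E-box, nor ATGCAAAT, the octamer, was found on either strand in these 4 windows, against 12.7% and 1.62% of all promoters. The Tox2 promoter was rich in G and C (75.2%, where the median of all promoters was 52.0%), and that of Gcsam was not (51.6%). A match describes letters only and does not show a bound site.

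The libraries had between 15662712 and 18298451 counted reads, and a count of 3 was between 0.164 and 0.192 CPM (counts scaled to the size of the library) before TMM normalization. Replicates of a strain differed by more than counting error (chi-square over its degrees of freedom from 13.6 to 83.5). Of 6 genes of spleen stroma, Tlx1, a transcription factor, had 30.0 CPM in NOD.B10 and 25.1 CPM in BL/10 (means, n = 3 each). Nkx2-5 was lower, at 4.59 and 4.04 CPM. Ccl21a had at most 1 count in a library and was not tested, and none of the 5 tested genes of this list passed the threshold in edgeR. The marker lists of other cells differed between the strains. Of 18 T lineage genes, 15 were higher in NOD.B10 by edgeR and none lower, against 9.11% and 8.22% of all tested genes. Those not called were Cd2, Cd8a and Cd8b1 (log2 fold changes 0.12, 0.16 and -0.40), whereas Cd4 was called higher (0.96). The summed level of the list was between 1282 and 1721 CPM in NOD.B10 and between 645 and 878 CPM in BL/10. None of 12 B lineage genes passed the threshold in edgeR (1 had an unadjusted p under 0.05, and 1 passed in DESeq2). Their sum ranged from 4247 to 5494 CPM in NOD.B10 spleens and overlapped with the 3166 to 5627 CPM of BL/10, where replicate 1 was the highest. All 8 neutrophil genes were lower in NOD.B10 (2089 to 2394 CPM in sum against 6007 to 12607 CPM). Pancreas acinar genes reached 13666, 2101 and 111 CPM in sum in BL/10 replicates 1, 2 and 3, and at most 31.3 CPM in NOD.B10. The part of these lists in the values below was not tested. In whole spleen RNA, a larger number of cells of a type and more RNA of a gene per cell cannot be told apart.

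Across the 8 members, Cd40lg and Tox2 were higher in NOD.B10 spleens (2 genes with an adjusted p below 0.05 by the quasi-likelihood test of edgeR) and none was lower, while 6 had an unadjusted p under 0.05, Gcsam with the lower level in NOD.B10. Of all 15330 genes, 9.11% were called higher and 8.22% lower. The median log2 fold change of the members was 0.46, where that of all tested genes was 0.0006. All 3 NOD.B10 libraries lay above all 3 BL/10 libraries for Bcl6, Maf, Cd40lg, Tox2 and S1pr2, as they did for 20.5% of tested genes, and below them for Gcsam, as for 17.5% of tested genes. The libraries overlapped for Cxcr5 and Mybl1. In either direction, the strains were apart for 6 of 8 members and for 38.0% of tested genes. With BL/10 replicate 1 left out 5 members were called higher (Cxcr5, Bcl6 and S1pr2 in addition), and 3 without BL/10 replicate 3 (Maf in addition). DESeq2 called 3 members higher, Bcl6 in addition to Cd40lg and Tox2, and none lower. Without both 36-week libraries, which leaves BL/10 replicate 1 alone, Cd40lg was called higher and Gcsam lower.

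**Figure D1:**
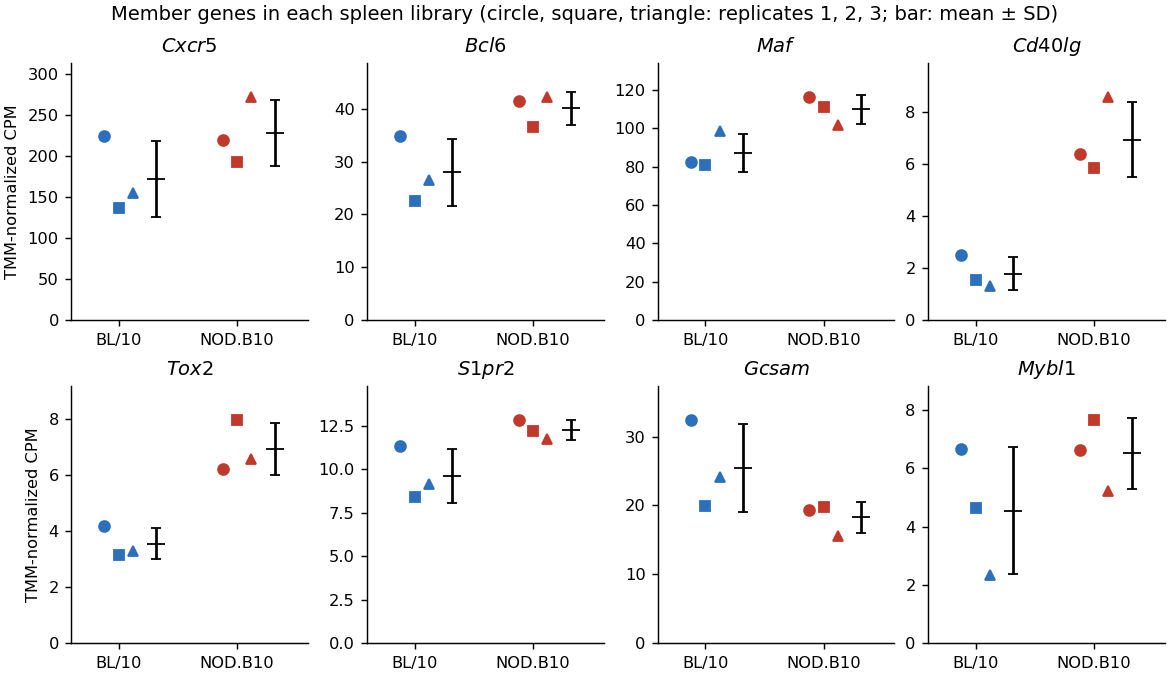
TMM-normalized CPM of each member gene (vertical axes start at 0 and differ between panels) in the 3 BL/10 (blue) and 3 NOD.B10 (red) libraries, with circles, squares and triangles for replicates 1, 2 and 3 and a bar for the mean ± SD. Cd40lg and Tox2 show the widest gap between the strains, Gcsam is the only member lower in all NOD.B10 libraries, and BL/10 replicate 1 is the highest BL/10 library for every member except Maf.

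Cd40lg showed the largest difference. It encodes the ligand that helper T cells present to CD40 on B cells, and lies on chromosome X from 57212143 to 57224042 (GRCm38, plus strand, ENSMUSG00000031132). Its level was 6.40, 5.83 and 8.60 CPM in NOD.B10 replicates 1, 2 and 3, and 2.50, 1.54 and 1.31 CPM in the BL/10 replicates. All NOD.B10 libraries lay above the highest BL/10 library, and the means were 6.94 ± 1.46 and 1.78 ± 0.631 CPM (SD, n = 3 each), a ratio of 3.89. The log2 fold change was 1.95 (standard error, SE, 0.28, adjusted p = 0.00358 in edgeR). It stayed between 1.75 and 2.28 with each library left out, and past the threshold in all 6 of these fits. Without both libraries labelled 36 weeks, which leaves 1 BL/10 library, the log2 fold change was 1.47. The counts were low, 107, 95 and 153 reads in NOD.B10 replicates against 46, 23 and 23 reads in those of BL/10, and a count of 23 has an exact 95% Poisson interval of 14.6 to 34.5 for counting error alone. Its receptor gene Cd40 had 61.9 ± 8.83 CPM in NOD.B10 and 41.7 ± 10.0 CPM in BL/10 (SD, n = 3 each), with overlapping libraries (log2 fold change 0.57, adjusted p = 0.067 in edgeR). Without BL/10 replicate 1, the adjusted p of Cd40 was under 0.05.

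Tox2 was the other member past the threshold. The gene, on chromosome 2 from 163203125 to 163324170 (plus strand, ENSMUSG00000074607), encodes an HMG-box factor of Tfh cells and also of natural killer (NK) cells. It was present at 6.22, 7.98 and 6.57 CPM in NOD.B10 replicates 1, 2 and 3, and at 4.18, 3.15 and 3.30 CPM in those of BL/10. The strains did not overlap, with means of 6.93 ± 0.933 and 3.54 ± 0.558 CPM (SD, n = 3 each). Its fold change on the log2 scale, 0.96 (SE 0.18, adjusted p = 0.0119 in edgeR), lay between 0.85 and 1.09 with each library left out, with adjusted p between 0.00846 and 0.0484. Without both libraries labelled 36 weeks, which leaves 1 BL/10 library, it was 0.73 (adjusted p = 0.159). Its relative Tox, a factor of developing and chronically stimulated T cells, was also higher in NOD.B10 (8.63 ± 1.47 against 4.98 ± 1.18 CPM, SD, n = 3 each, log2 fold change 0.79, adjusted p = 0.0415 in edgeR), but lost the call in 5 of the 6 fits without a library. The NK cell markers, which could share Tox2, moved apart, with Ncr1 called higher, Klrb1c called lower and the middle of the 8 genes at 0.01 (log2).

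Bcl6, on chromosome 16 from 23965052 to 23988852 (minus strand, ENSMUSG00000022508), had 41.5, 36.6 and 42.4 CPM in NOD.B10 and 35.0, 22.5 and 26.6 CPM in BL/10 replicates 1, 2 and 3. The lowest NOD.B10 library was close to the highest BL/10 library, replicate 1. The means were 40.1 ± 3.10 and 28.0 ± 6.35 CPM (SD, n = 3 each). Its log2 fold change was 0.52 (SE 0.16), and the adjusted p of 0.0637 in edgeR missed the threshold. This call depended on the setting, since the adjusted p was 0.0379 with DESeq2, 0.023 with limma-voom, 0.0467 without a filter beyond 1 count and 0.00742 without BL/10 replicate 1, and reached 0.473 without both 36-week libraries, where the log2 fold change was 0.20. Ncor1 and Bcor, which encode corepressors used by BCL6, had log2 fold changes of 0.13 and 0.25 (adjusted p = 0.371 and 0.071 in edgeR). Prdm1, whose product Blimp-1 opposes BCL6 and drives plasma cell formation, was higher as well, with 18.5 ± 1.45 CPM in NOD.B10 and 11.8 ± 1.04 CPM in BL/10 (SD, n = 3 each, adjusted p = 0.00968 in edgeR). Of 8 plasma cell markers, Prdm1 among them, 6 were called higher, against 9.11% of all tested genes.

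Maf, on chromosome 8 from 115682942 to 115707794 (minus strand, ENSMUSG00000055435), had the smallest standard error of the members. It was present at 117, 111 and 102 CPM in NOD.B10 and 82.1, 80.7 and 98.8 CPM in BL/10 replicates 1, 2 and 3, with means of 110 ± 7.58 and 87.2 ± 10.1 CPM (SD, n = 3 each). The gap between the nearest libraries was small, and the log2 fold change of 0.33 (SE 0.11, adjusted p = 0.0706 in edgeR) missed the threshold. It was passed with an adjusted p of 0.0473 in limma-voom and of 0.0421 without BL/10 replicate 3. Maf is also a macrophage gene. The 12 macrophage markers had a median log2 fold change of -0.02, with 2 called higher and 1 lower, against 9.11% and 8.22% of all tested genes. The annotation places 440 exon bases of Maf under Gm15655 on the other strand, so that reads there could not be assigned.

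Cxcr5 was the most abundant member. It lies on chromosome 9 from 44511787 to 44561877 (minus strand, ENSMUSG00000047880) and had 219, 193 and 272 CPM in NOD.B10 and 225, 137 and 154 CPM in BL/10 replicates 1, 2 and 3. BL/10 replicate 1 exceeded NOD.B10 replicates 1 and 2, and the means were 228 ± 40.5 and 172 ± 46.5 CPM (SD, n = 3 each). The log2 fold change was 0.41 (SE 0.21, adjusted p = 0.205 in edgeR), and was 0.64 (adjusted p = 0.0224) without BL/10 replicate 1. In the libraries labelled 26 weeks alone it was 0.02 (adjusted p = 0.969). Cxcl13, which encodes its ligand and is made by follicle stroma, had 275 ± 34.3 CPM in NOD.B10 and 202 ± 42.0 CPM in BL/10 (SD, n = 3 each), without overlap (log2 fold change 0.45, adjusted p = 0.107 in edgeR). Exons of Cxcr5 and of its neighbor Bcl9l share 110 bases.

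Among the GC B cell members, none passed the threshold and the directions were mixed. S1pr2 (chromosome 9 from 20962361 to 20976781, minus strand, ENSMUSG00000043895) had 12.9, 12.2 and 11.7 CPM in NOD.B10 and 11.4, 8.38 and 9.15 CPM in BL/10 replicates 1, 2 and 3. The strains did not overlap, by a narrow gap to BL/10 replicate 1, and the log2 fold change was 0.35 (SE 0.14, adjusted p = 0.127 in edgeR, 0.0366 without BL/10 replicate 1). The log2 fold change of S1pr2 was 0.26 without BL/10 replicate 2 and 0.11 in the libraries labelled 26 weeks alone. Gcsam (chromosome 16 from 45610380 to 45622867, plus strand, ENSMUSG00000022659) had 19.4, 19.8 and 15.6 CPM in NOD.B10 and 32.5, 19.9 and 24.2 CPM in BL/10. All NOD.B10 values were below those of BL/10, although NOD.B10 replicate 2 and BL/10 replicate 2 nearly met. The log2 fold change of Gcsam was -0.48 (SE 0.19, adjusted p = 0.115 in edgeR), and -0.83 (adjusted p = 0.0359) in the libraries labelled 26 weeks alone. Mybl1 (chromosome 1 from 9667415 to 9700209, minus strand, ENSMUSG00000025912) had 6.64, 7.68 and 5.23 CPM in NOD.B10 and 6.68, 4.63 and 2.33 CPM in BL/10. Its libraries overlapped, and its log2 fold change of 0.51 (SE 0.35, adjusted p = 0.333 in edgeR) was -0.039 in the libraries labelled 26 weeks alone.

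**Figure D2:**
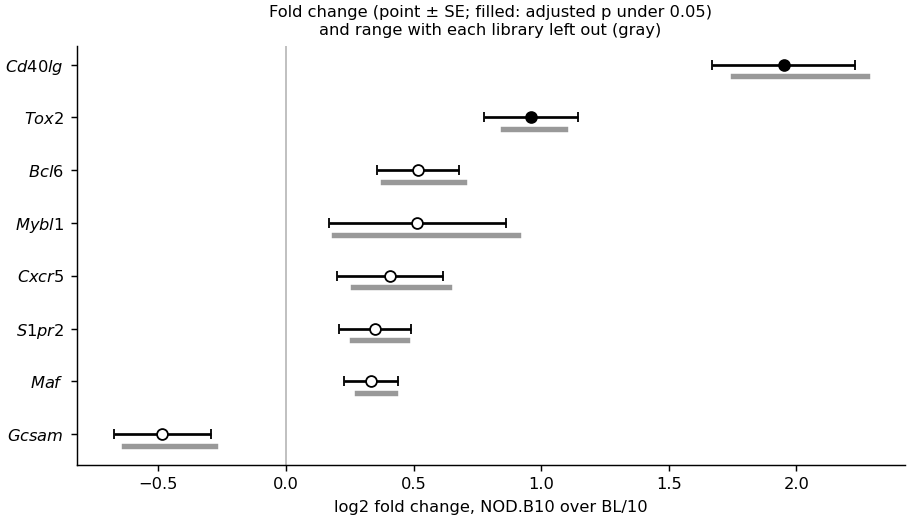
Log2 fold change of each member in NOD.B10 over BL/10 (horizontal axis) from edgeR's quasi-likelihood fit, as a point with its standard error, filled where the adjusted p was under 0.05, with the range over the 6 fits that each left out a library as a gray bar. Cd40lg (1.95) and Tox2 (0.96) stand apart from the other members, which lie between -0.48 and 0.52, and no gray bar crosses 0.

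The relatives of these members separated by gene. Myb, which is expressed in precursor cells, fell by 1.07 on the log2 scale (27.1 ± 4.59 CPM in NOD.B10 against 56.9 ± 9.54 CPM in BL/10, SD, n = 3 each, adjusted p = 0.00446 in edgeR). Mybl2, a cell cycle gene, had a log2 fold change of -0.67 (adjusted p = 0.106 in edgeR). Among receptors for sphingosine 1-phosphate, S1pr1, which draws lymphocytes out of lymphoid tissue, had 285 ± 43.9 CPM in NOD.B10 and 170 ± 23.9 CPM in BL/10 (adjusted p = 0.0153 in edgeR), and S1pr3 had 87.1 ± 6.61 and 60.0 ± 4.94 CPM (adjusted p = 0.00985 in edgeR, SD, n = 3 each). Both were higher in every NOD.B10 library, although the call of S1pr1 was lost in 3 and that of S1pr3 in 1 of the 6 fits without a library. Sphk1, a kinase that makes this lipid, fell by 1.05 on the log2 scale (adjusted p = 0.0098 in edgeR). Gna13, the G protein through which S1PR2 acts, had 159 ± 4.43 and 154 ± 4.02 CPM (log2 fold change 0.04, adjusted p = 0.747 in edgeR). Of the 26 tested partners and relatives, 4 were called higher and 2 lower, and their median log2 fold change was 0.13, where 9.11% and 8.22% of all tested genes were called higher and lower. Without NOD.B10 replicate 1 the count was 2, both lower, without NOD.B10 replicate 3 it was 3, and without BL/10 replicate 1 it was 13.

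Compared per kilobase of exon, Cxcr5 was the most abundant member in both strains, with 80.8 ± 14.3 CPM per kilobase in NOD.B10 and 60.9 ± 16.5 in BL/10 (SD, n = 3 each). Maf followed at 13.3 ± 0.919 and 10.6 ± 1.22 CPM per kilobase, apart from the genes above and below it. In BL/10 the order then ran Gcsam (7.44), Bcl6 (4.18), S1pr2 (3.42), Cd40lg (1.43), Tox2 (1.04) and Mybl1 (0.842 CPM per kilobase). The libraries of Bcl6 and S1pr2, of Cd40lg and Tox2, and of Tox2 and Mybl1 overlapped in BL/10. In NOD.B10 the order after Maf was Bcl6 (5.99), Cd40lg (5.55), Gcsam (5.33), S1pr2 (4.36), Tox2 (2.04) and Mybl1 (1.21 CPM per kilobase). Bcl6, Cd40lg, Gcsam and S1pr2 overlapped with their neighbors in that order, whereas Cxcr5 and Maf above them and Tox2 and Mybl1 below were clear of the spread.

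The members were next set against lineage markers of the same library, because T lineage genes as a group differed between the strains. For each library, the mean log2 level of Cd3d, Cd3e and Cd3g, the genes of the CD3 chains, was subtracted from the log2 level of the member. This mean was 6.16, 6.08 and 6.44 in NOD.B10 and 5.14, 4.95 and 4.71 in BL/10 (log2 CPM). Relative to it, Cd40lg lay at -3.46, -3.51 and -3.32 in NOD.B10 and at -3.76, -4.24 and -4.22 in BL/10. Cd40lg was thus higher relative to CD3 in all NOD.B10 libraries, by 0.65 on the log2 scale (exact two-sided permutation p = 0.1, the smallest that 3 against 3 libraries allow). The CD3 mean itself was higher in NOD.B10 by 1.29, and 1.53% of tested genes were higher relative to it in the same way. Bcl11b and Cd6, of the T lineage list, also had larger log2 fold changes (1.77 and 1.74) than Cd3d, Cd3e and Cd3g (1.13 to 1.42). Others of that list, such as Zap70 (1.00), had smaller ones. With a pseudocount of 1 CPM in place of 0.1 the difference of Cd40lg was 0.26, and with the mean of the whole T lineage list 0.89. Tox2 did not follow Cd40lg, since its libraries overlapped, with a difference of -0.34 (exact p = 0.2). Cxcr5, Bcl6, Maf, S1pr2 and Gcsam lay lower relative to CD3 in all NOD.B10 libraries, as did 91.7% of tested genes. Gcsam had the widest of these differences, at -1.75.

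Against B lineage markers (the mean log2 level of 4 B lineage genes), most members overlapped between the strains. Cxcr5 lay at -1.49, -1.45 and -1.38 in NOD.B10 and at -1.70, -1.52 and -1.49 in BL/10, a difference of 0.13 (exact p = 0.2). S1pr2 differed by 0.06 (exact p = 0.7) and Bcl6 by 0.24 (exact p = 0.2), with overlapping libraries. Gcsam was lower relative to these markers in all NOD.B10 libraries, at -4.98, -4.73 and -5.49 against -4.49, -4.30 and -4.16 in BL/10, a difference of -0.75 (exact p = 0.1, the smallest possible), as were 9.30% of tested genes. It stayed between -0.92 and -0.54 with each library left out. Cd40lg and Tox2 were higher, by 1.64 and 0.66 (exact p = 0.1 each), as were 5.33% of tested genes.

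**Figure D3:**
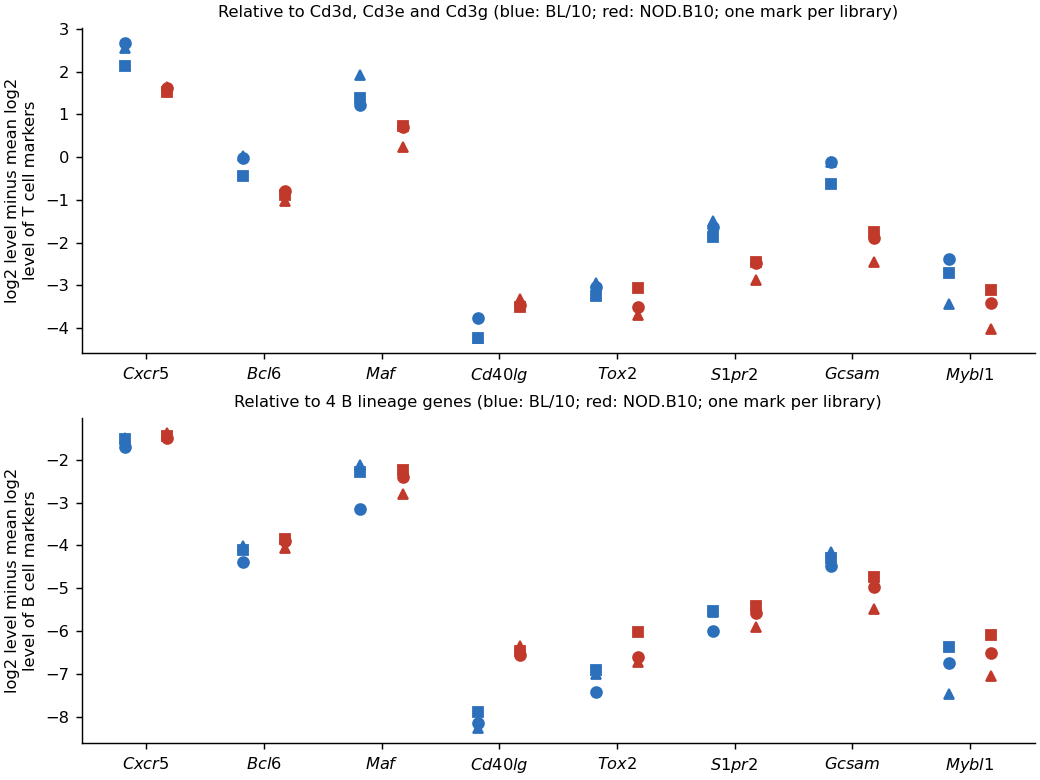
Log2 level of each member minus the mean log2 level of 3 CD3 genes (top) or of 4 B lineage genes (bottom) in each BL/10 (blue) and NOD.B10 (red) library, with circles, squares and triangles for replicates 1, 2 and 3. Relative to the CD3 genes, Cd40lg is the only member above BL/10 in all NOD.B10 libraries (by 0.65 on average), and relative to B lineage genes, Gcsam is the only member below (by 0.75).

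Other Tfh genes were examined beside Cd40lg and Tox2. Of 29 tested genes of this list, 15 were higher in NOD.B10 at an adjusted p under 0.05 in edgeR and none was lower, with a median log2 fold change of 0.59, against 9.11% of all genes and a median of 0.0006. The largest changes were those of Lef1 (1.82, adjusted p = 0.00631) and Tcf7 (1.66, adjusted p = 0.00118), factors of early Tfh and of naive T cells, Cd28 (1.32, adjusted p = 0.00223), the costimulatory receptor, and Tnfsf8 (1.28, adjusted p = 0.0125, and 0.0514 without NOD.B10 replicate 3), the CD30 ligand. Icos, the costimulator that sustains Tfh cells, had 24.3 ± 0.101 CPM in NOD.B10 and 13.9 ± 2.84 CPM in BL/10 (SD, n = 3 each, log2 fold change 0.81, adjusted p = 0.0113 in edgeR), and stayed past the threshold with each library left out. Sh2d1a, which encodes the adaptor SAP of T cell and B cell contact, had 13.3 ± 1.76 and 7.18 ± 1.31 CPM (adjusted p = 0.0122 in edgeR, and 0.055 without NOD.B10 replicate 1). Foxp3, the factor of regulatory and follicular regulatory T cells, had 13.5 ± 2.85 and 5.59 ± 0.855 CPM (log2 fold change 1.27, adjusted p = 0.00488 in edgeR). Most of these genes are expressed by T cells outside the follicle as well, and the T lineage list, which shares Cd28, moved with them (median log2 fold change 1.19). The part of the T lineage markers in these values was not tested. Irf4, called higher, is on both the Tfh list and the plasma cell list. The lists were chosen with earlier results of these data known, so that their counts are a description.

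The genes closest to Tfh function were less clear. Pdcd1, the receptor PD-1, had 12.9, 12.4 and 14.6 CPM in NOD.B10 and 10.1, 4.29 and 4.49 CPM in BL/10 replicates 1, 2 and 3. Its strains did not overlap, but the adjusted p was 0.0537 in edgeR (log2 fold change 1.07), with 0.00872 in DESeq2. Il21, the Tfh cytokine, was counted with 39, 26 and 30 reads in NOD.B10 spleens and with 50, 4 and 2 reads in BL/10 replicates 1, 2 and 3. Hence BL/10 replicate 1 had the most Il21 of all libraries and the other BL/10 libraries had the least, and the log2 fold change of 0.80 (SE 0.82, adjusted p = 0.526 in edgeR) became 3.28 (adjusted p = 0.00321) without replicate 1. Il4 had between 5 and 23 counts and overlapped (adjusted p = 0.489 in edgeR). Ascl2, an early inducer of Cxcr5, had at most 7 counts in a library and was not tested. The number of Tfh genes called was 20 with DESeq2, 26 without BL/10 replicate 1, 9 in each fit without replicate 2 or 3 of either strain, 6 without NOD.B10 replicate 1, and 4 in the libraries labelled 26 weeks alone.

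Some genes that oppose the Tfh program were higher too. Of 15 such genes 4 were called higher and none lower, against 9.11% and 8.22% of all tested genes, with a median log2 fold change of 0.32. The 4 genes were Il7r (1.02, adjusted p = 0.0379 in edgeR), a receptor of naive and memory T cells, S1pr1, Prdm1 and Foxo1 (0.57, adjusted p = 0.0436). Il7r and Foxo1 each lost the call in 4 of the 6 fits without a library. Klf2, which maintains S1pr1, had 107 ± 23.4 and 90.04 ± 19.1 CPM (SD, n = 3 each, adjusted p = 0.408 in edgeR). The count was 1 without NOD.B10 replicate 1 or BL/10 replicate 3, 2 without NOD.B10 replicate 3 or BL/10 replicate 2, and 0 in the libraries labelled 26 weeks alone.

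Few GC B cell genes passed the threshold. Of 28 tested genes of this list, none was called higher and 2 were called lower in NOD.B10 by edgeR, and the median log2 fold change was -0.04, while 11 genes had an unadjusted p under 0.05 (5 with a higher level in NOD.B10) and DESeq2 called 3 higher and 6 lower. The 2 of 28 genes called lower are to be read against the 8.22% of all tested genes called lower, and the 0 called higher against 9.11%. The genes called lower were Polh (25.6 ± 3.00 CPM in NOD.B10 against 49.3 ± 7.72 CPM in BL/10, SD, n = 3 each, adjusted p = 0.00445 in edgeR), a translesion polymerase of somatic hypermutation, and Exo1 (log2 fold change -0.86, adjusted p = 0.0289 in edgeR), an exonuclease of mismatch repair. Polh kept its call in all 6 fits without a library and Exo1 lost it in 4. Without both libraries labelled 36 weeks, which leaves 1 BL/10 library, neither Polh nor Exo1 was called lower. Both are also used by dividing cells. All 10 proliferation genes had negative log2 fold changes (median -0.68), none of which passed the threshold in edgeR while 5 had an unadjusted p under 0.05 and 5 passed in DESeq2.

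Defining GC B cell genes were split within BL/10. Rgs13, which encodes a regulator of chemokine signaling in GC B cells, had 8.85, 6.76 and 5.23 CPM in NOD.B10 and 12.9, 1.61 and 0.966 CPM in BL/10 replicates 1, 2 and 3. Nuggc had 1.97, 3.38 and 2.81 CPM in NOD.B10 and 4.83, 1.88 and 1.82 CPM in BL/10. In both genes BL/10 replicate 1 was the highest of the 6 libraries and BL/10 replicates 2 and 3 were the lowest, for Nuggc by a narrow gap to NOD.B10 replicate 1. The same library was the highest for Gcsam and Il21. BL/10 replicate 1 is the only BL/10 library labelled 26 weeks and is also the library with the most pancreas acinar RNA, so that age, mouse and tissue carried over cannot be told apart. With all libraries, the adjusted p in edgeR was 0.758 for Rgs13 and 0.912 for Nuggc. Without BL/10 replicate 1, the log2 fold change was 2.43 for Rgs13 (adjusted p = 0.00318), and in the libraries labelled 26 weeks alone it was -0.90 (adjusted p = 0.129). Without that library, 7 genes of the list were called higher and 6 lower. Leaving out any other library gave between 1 and 3 called genes, all lower. Fas, a death receptor that is high on GC B cells and on activated T cells, had a log2 fold change of 0.62 (adjusted p = 0.0666 in edgeR), and Mef2b had at most 7 counts in a library and was not tested.

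Genes known to be low on GC B cells were examined as a counterpart. All 5 had positive log2 fold changes (median 0.50), and Cd38 (0.50, adjusted p = 0.0398 in edgeR), an ectoenzyme of resting B cells, and Ccr6 (0.73, adjusted p = 0.0404), a chemokine receptor of B and memory cells, passed the threshold. Cd38 lost the call in 5 and Ccr6 in 4 of the 6 fits without a library. Of 11 genes of follicular dendritic cells (FDC) and follicle stroma, 3 were called higher and none lower, with a median log2 fold change of 0.38. Both lists are to be read against the 9.11% and 8.22% of all tested genes called higher and lower. The 3 FDC and stroma genes were Madcam1 (25.1 ± 0.795 against 14.4 ± 2.22 CPM, SD, n = 3 each, adjusted p = 0.00566 in edgeR), an adhesion molecule of marginal sinus and follicle stroma, Clu (0.42, adjusted p = 0.0447) and Vcam1 (0.39, adjusted p = 0.0492). Madcam1 was the only gene of this list past the threshold in all 6 fits without a library, and the count of called genes was 1 in 5 of these fits and 5 without BL/10 replicate 1. Cr2, shared by FDC and B cells, had 700 ± 125 and 491 ± 64.2 CPM (adjusted p = 0.0662 in edgeR).

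**Figure D4:**
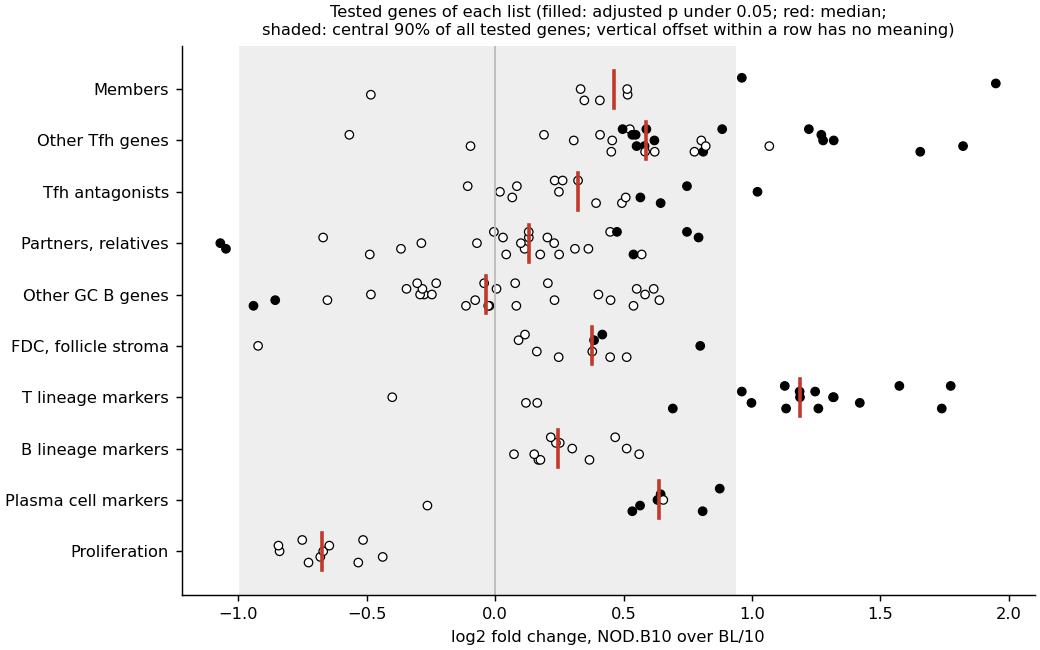
Log2 fold change in NOD.B10 over BL/10 (horizontal axis) of every tested gene of the members and 9 lists, filled where the adjusted p in edgeR was under 0.05, with the median of each list in red and the central 90% of all tested genes shaded (from -0.99 to 0.94). Tfh genes lie mostly to the right (median 0.59), while GC B cell genes lie on both sides of 0 (median -0.04).

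The genes next to the members on the chromosome were examined as well. Of 32 places (2 tested genes on each side of each member), 1 was called higher and 4 lower, where 17.3% of all tested genes were called in either direction. No tested neighbor of Cd40lg or Tox2 passed the threshold, with log2 fold changes from 0.09 to 0.30 around Cd40lg and from -0.67 to 0.68 around Tox2. Bcl9l, which overlaps Cxcr5, was called higher (0.56, adjusted p = 0.0378 in edgeR). Rtp4, 350830 bases from Bcl6, was lower (-0.79, adjusted p = 0.0444), as was Cmc2, 1180891 bases from Maf (-0.54, adjusted p = 0.0404). The widest differences lay on both sides of Mybl1, where Adhfe1 had 0.598 ± 0.236 CPM in NOD.B10 and 3.47 ± 1.20 CPM in BL/10 (SD, n = 3 each, log2 fold change -2.53, adjusted p = 0.00432 in edgeR) and 1700034P13Rik had a log2 fold change of -2.28 (adjusted p = 0.00541). The tested genes nearest to Mybl1 on its 2 sides, 2610203C22Rik and Vcpip1, were not called (-0.15 and -0.08, adjusted p = 0.802 and 0.486 in edgeR). Mybl1 itself did not share the direction of Adhfe1 and 1700034P13Rik.

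The pattern of each member over the 6 libraries was compared with that of 204 other genes of the lists by Pearson's r of log2 CPM, as a description, since the libraries fall into 2 strains. Cd40lg was most like Lck and Cd3g, genes of T cell receptor signaling (r = 0.998 and 0.997). Cxcr5 was most like Bcl2 (r = 0.998), and Bcl6 was most like Nfatc1 (r = 0.996) and Il21r (r = 0.99). Tox2 was closest to Sdc1, a plasma cell gene (r = 0.99), S1pr2 to Cd38 (r = 0.99), and Maf to Vcam1 (r = 0.96), a gene of red pulp macrophages and stroma. Mybl1 was closest to Ctla4 (r = 0.94). Gcsam had no close match, the highest being the acinar gene Cela1 (r = 0.83) and the B cell factor Spib (r = 0.765), and BL/10 replicate 1 was the highest library for both Gcsam and the acinar genes in sum, whose part was not tested.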

How the data were processed

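RNA-seq counts of spleen from 3 NOD.B10 and 3 BL/10 females were analyzed. The authors deposited raw read counts per gene, with no normalization. Its header names featureCounts version 1.5.1 on exons, grouped by gene identifier of Ensembl annotation 84 (GRCm38), with the default settings of the tool, thus without strand and without reads that map to several places or genes. The aligner is given as Tophat2 in the paper and as HISAT2 version 2.0.5 in the submitters' processing notes. The table also holds gene lengths, used for levels per kilobase. Libraries deficient in Myd88, which the header lists too, were not used here.

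Symbols and positions came from GENCODE M21 on the same build (47224 of 47729 identifiers matched). Counts were filtered with filterByExpr, normalized by TMM and compared by the quasi-likelihood test of edgeR version 4.0.16 (R version 4.3.3) with BL/10 as the reference. Benjamini-Hochberg adjustment was made over the 15330 genes tested, with 0.05 as the threshold. The SE is the size of the fold change divided by the square root of its F value. CPM are TMM-normalized, and log2 CPM carry a pseudocount of 0.1. The fit was tested on simulated data. Libraries are biological replicates per the labels, and p-values set the difference between the strains against the spread between replicates. Within BL/10, this spread also holds the difference in labelled age and in pancreas acinar RNA. With 3 against 3, an exact permutation test cannot give a p below 0.1.

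Alternatives were DESeq2 version 1.42.0, limma-voom with quality weights (limma version 3.58.1), RLE and upper-quartile normalization, 2 other filters, leaving out immunoglobulin and hemoglobin genes, a replicate block, a threshold of 0.01, leaving out each library, and leaving out both 36-week libraries. Named genes were the members, defining genes of each list, up to 4 called genes each way per list with the largest change, the 2 nearest tested genes on each side of a member and the 2 listed genes most alike in pattern. Marker values named beside a member were picked from the lists after they were seen. Members and lists were chosen with earlier results of these data known. Some genes of the lists are not reported here by name.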

Additional observations from a re-analysis of the deposited data

How the results depend on the processing

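With each library left out in turn, the number of genes called ran from 1269 to 4107, of members from 2 to 5, of partners and relatives from 2 to 13, of Tfh genes from 6 to 26, of Tfh antagonists from 1 to 5, of GC B cell genes from 1 to 13 and of FDC genes from 1 to 5. The highest of each was without BL/10 replicate 1. Members above the T cell markers numbered 1 in every such setting, and those above the B cell markers ran from 2 to 4. At an adjusted p under 0.01, 1035 genes, 1 member, 3 partners, 4 Tfh genes, 1 antagonist, 1 GC B cell gene and 1 FDC gene were called. Without both 36-week libraries (3 against 1, the single BL/10 library being assumed to vary like the others), 1001 genes, 0 partners, 4 Tfh genes, 0 antagonists, 1 GC B cell gene and 0 FDC genes were called, and the log2 fold change of Mybl1 was -0.039 in place of 0.51. The number of GC B cell genes called was 9 with DESeq2 (3 higher), 10 with limma-voom (4 higher), 6 without a filter (3 higher) and 6 with the replicate block (2 higher). That of FDC genes was 5 with DESeq2, 6 with limma-voom and 1 with at least 10 counts in every sample. Limma-voom called 4 members. The cause of these shifts was not tested.

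With the replicate number as a block, 2889 genes and 3 members were called, Bcl6 in addition (adjusted p = 0.0335 in edgeR). Deviations of libraries with the same number had correlations of 0.03, 0.165 and -0.085, and those with different numbers from -0.179 to 0.155. With 3 libraries of each strain, these values cannot show whether the numbers pair the mice. Counts were low in some libraries for Cd40lg, Tox2, Mybl1, Il21, Il4, Rgs13 and Nuggc, which limits their precision.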
